A study of Triticum aestivum with 16 samples.

Results

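WAPO1 and LFY are floral meristem genes of bread wheat, and each has 3 copies (homoeologs), 1 in each of the A, B and D subgenomes. The 6 copies were taken by identifier from the 107891 wheat gene identifiers in every table, and all 6 were listed in each library. They were WAPO1-7A (TraesCS7A02G481600), WAPO1-7B (TraesCS7B02G384000), WAPO1-7D (TraesCS7D02G468700), LFY-2A (TraesCS2A02G443100), LFY-2B (TraesCS2B02G464200) and LFY-2D (TraesCS2D02G442200). The tables and the reference gene table give no gene names for them, so these names come from the literature. The last part of each copy's name is its chromosome.

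LFY is the wheat counterpart of LEAFY, a transcription factor found only in plants that directs the formation of floral meristems and activates floral organ genes in Arabidopsis. WAPO1 is the counterpart of UNUSUAL FLORAL ORGANS of Arabidopsis and ABERRANT PANICLE ORGANIZATION 1 of rice, F-box proteins that act together with LFY proteins. The 7A copy of WAPO1 is known in wheat for its link to the number of spikelets on a spike.

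Messenger RNA was sequenced in 16 libraries, 2 for each of 8 groups. For AiKang58 (AK58), a cultivar, leaf, root and shoot apex came from seedlings of 2 weeks, and axillary buds of 1.0 to 2.0 cm came from plants of 6 weeks that had spent 30 days at 4 °C. For Zhengmai7698 (ZM7698), another cultivar, the 2 tissues were shoot apex and axillary bud, with buds again of 1.0 to 2.0 cm, from plants of 2 weeks, either wild type (WT) or M6, a hexa-mutant (TaSPL7-aabbdd_TaSPL15-aabbdd) with mutations in the A, B and D copies of 2 SPL transcription factor genes. Plants were grown with 16 h of light at 22 °C and 8 h of dark at 19 °C. The AK58 bud and apex differ in tissue, age and cold treatment together, so these cannot be told apart, and the sources used here do not say how many independent lines M6 comprises. Separate plants are not stated for the replicates, and the p-values cover only the spread among these libraries, which may be technical.

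AK58 values are normalised reads, that is, whole reads divided by 1 factor per library and not corrected for gene length; 1 read was worth 0.721 to 1.10 normalised reads. The AK58 libraries held 51497044 to 79585209 reads, and 3 reads, the limit that a count of 0 allows, corresponded to 2.16 to 3.29 normalised reads. ZM7698 values are TPM, transcript levels corrected for length and scaled to the same sum in every library, and their depth is unknown, so the sets are never compared in level. In each set a call required a limma adjusted p under 0.05, over every identifier tested, together with a log2 fold change of 1 or more in size. The root replicates of AK58 stood apart from each other, with a correlation of log2(value + 1) across identifiers of 0.779 against 0.955 to 0.988 in the other 7 groups. TB1, a repressor of axillary bud outgrowth, was the gene read against the tissue labels. Its 3 copies, whose identifiers the files do not name, were at 0 in every AK58 leaf and root library and above 0 in every apex and bud library. The targeted genes TaSPL7 and TaSPL15 themselves were not analysed here, so the M6 label was not checked on them. In such bulk samples, fewer cells of a type and less RNA per cell cannot be told apart.

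In AK58 all 6 copies had their highest value in a shoot apex library. The 3 LFY copies were at 0 in both root libraries and, apart from 2 reads of LFY-2B, in both leaf libraries. The 3 WAPO1 copies were at 0 in both leaf libraries. In axillary buds both families were present but low, with 20 reads of WAPO1 and 56 of LFY over the 2 libraries, against 214 and 1281 in the apex. WAPO1-7B and WAPO1-7D, but neither WAPO1-7A nor LFY, also appeared in 1 of the 2 root libraries.

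**Figure D1:**
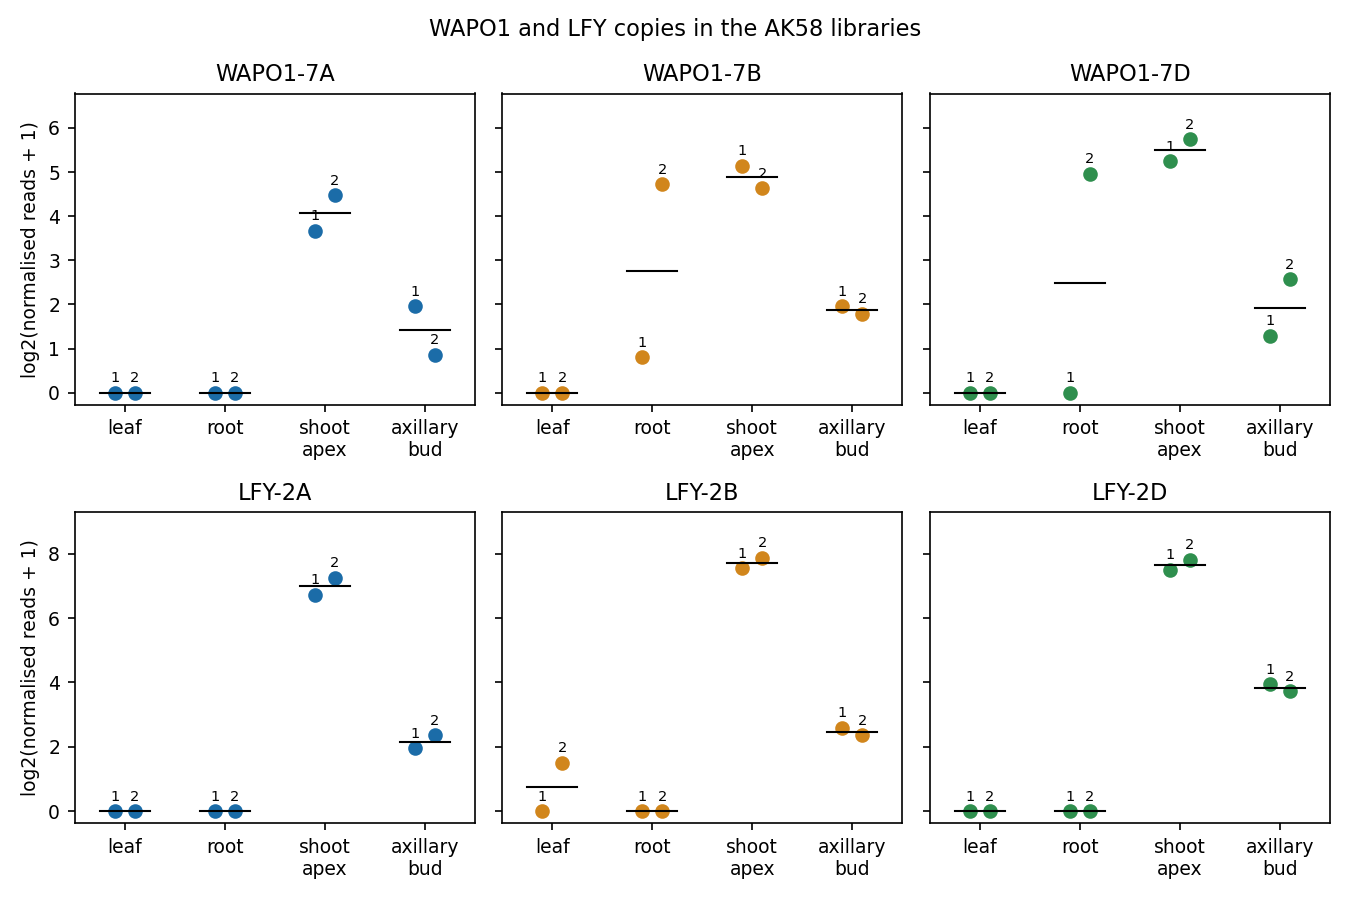
Log2(normalised reads + 1) of each copy in the 8 AK58 libraries. Points are libraries, numbers beside them are replicates and bars are the mean of 2 libraries. LFY copies reach 104 to 234 normalised reads in the apex and 0 in root, while WAPO1-7B and WAPO1-7D split the root libraries.

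LFY-2A held 104 and 151 normalised reads in the 2 apex libraries, 2.88 and 4.11 in the buds and 0 in each leaf and root library. LFY-2B held 187 and 234 in the apex, 5.04 and 4.11 in the buds, 0 and 1.85 in leaf and 0 in both roots. LFY-2D held 179.6 and 223 in the apex, 14.4 and 12.3 in the buds and 0 in all leaf and root libraries. For each LFY copy the apex libraries lay above every other library, and no leaf or root library reached a bud library. Groups did not overlap, with the apex higher, for 43.4% of all identifiers tested in leaf, 30.8% in root and 39.5% in bud.

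The WAPO1 copies were at 0 in leaf and split in root. WAPO1-7A held 11.7 and 21.2 normalised reads in the apex, 2.88 and 0.822 in the buds and 0 in leaf and root. WAPO1-7B held 34.3 and 23.8 in the apex, 2.88 and 2.46 in the buds, 0.748 and 25.4 in root and 0 in leaf. WAPO1-7D held 36.8 and 52.6 in the apex, 1.44 and 4.93 in the buds, 0 and 30.1 in root and 0 in leaf. For WAPO1-7A and WAPO1-7D the apex libraries lay above all others. For WAPO1-7B root replicate 2 lay between the 2 apex libraries.

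Before the tests, 3 of the copies passed the filter of 10 normalised reads in at least 2 libraries through the apex alone: WAPO1-7A, LFY-2A and LFY-2B reached 10 nowhere else. These 3 had to differ, and their calls against the apex are no independent support. WAPO1-7B and WAPO1-7D reached 10 in the apex and, outside it, only in root replicate 2. They too passed the filter only with the apex, so their calls against the apex are no independent support either. LFY-2D reached 10 in both apex and both bud libraries.

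Against the apex, all 6 copies were called lower in leaf, where 20.1% of the 69525 identifiers tested were called lower. The median log2 fold change was −6.23 for the members and −0.14 for all identifiers tested. Against a group at 0 a fitted fold change depends on the 1 added before the logarithm, so the fold was also bounded by setting each leaf or root library at 3 reads. On that bound LFY-2A was at least 42.1-fold and LFY-2D at least 66.4-fold higher in apex than in leaf, and at least 50.4-fold and 79.5-fold higher than in root. LFY-2B was at least 83.2-fold higher in apex than in root, and its ratio to the 2 leaf reads was 210 with an exact 95% counting interval of 57.7 to 1736. For WAPO1-7A the bound was 5.42-fold over leaf and 6.50-fold over root. For WAPO1-7B and WAPO1-7D it was 9.56-fold and 14.7-fold over leaf.

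The leaf calls of 2 WAPO1 copies depended on single libraries. WAPO1-7B was at −4.88 ± 1.20 on the log2 scale (fold change ± SE; limma adjusted p = 0.0207), and the call was lost without either leaf library or either apex library. WAPO1-7D had −5.49 ± 1.52 (limma adjusted p = 0.0304), and its call was lost without either leaf, either apex or either bud library. The limma adjusted p reached 0.108 and 0.139 in these fits. With edgeR on recovered reads the call of WAPO1-7D was lost as well, under TMM and RLE scaling (edgeR adjusted p = 0.0654 and 0.0660), while the other 5 copies stayed called. For the other 4 copies the limma adjusted p in leaf lay between 0.000334 and 0.00235.

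In root, 4 of the 6 copies were called lower than in the apex, against 14.0% of all identifiers tested: WAPO1-7A and the 3 LFY copies. The log2 fold change was −4.07 ± 0.52 for WAPO1-7A (limma adjusted p = 0.00218) and −6.98 ± 0.46 for LFY-2A (limma adjusted p = 0.000312). LFY-2B was at −7.72 ± 0.63 and LFY-2D at −7.65 ± 0.47 (limma adjusted p = 0.000512 and 0.000275). WAPO1-7B, at −2.12 ± 1.20, and WAPO1-7D, at −3.01 ± 1.52, missed the threshold (limma adjusted p = 0.215 and 0.172). Both were called lower without root replicate 2, at −4.08 and −5.49, and neither without root replicate 1, at −0.16 and −0.53.

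**Figure D2:**
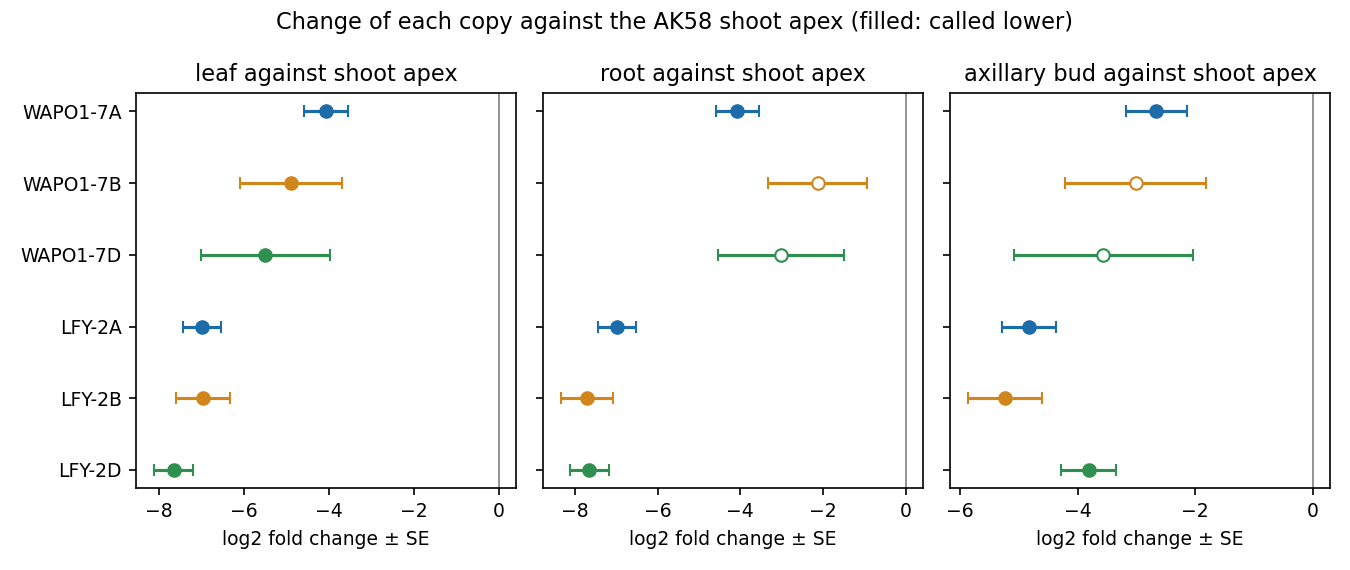
Log2 fold change with its standard error (horizontal axis) of each copy in leaf, root and axillary bud against the AK58 shoot apex. Filled points were called lower. All 6 are filled in leaf and 4 in root and in bud, the open points being WAPO1-7B and WAPO1-7D.

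The root signal of WAPO1 came from 1 library. Root replicate 2 held 27 reads of WAPO1-7B and 32 of WAPO1-7D, while root replicate 1 held 1 read of WAPO1-7B and none of the other copies. WAPO1-7A had 0 of the 59 WAPO1 reads in root replicate 2, which allows a share of up to 5.08%. In the apex libraries WAPO1-7A had 14.1% and 21.7% of the WAPO1 reads.

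Other genes moved with it. Of the 69525 identifiers tested, 2613 (3.76%) held at least 10 normalised reads in root replicate 2 and under 1 in root replicate 1, and 144 showed the reverse. Of those 2613, 67.5% reached 10 in both apex libraries, compared with 81.5% of all identifiers tested. A list of 34 copies of 13 regulators that act in tillering, flowering or the spike, whose identifiers could not be checked against names in the files, was set beside the members, and 21 of the 34 were higher in root replicate 2, none in root replicate 1, and 13 were equal. How all identifiers divided in direction between the root replicates was not counted, so this count has no background share. The normalised reads of all identifiers summed to 44329653 in root replicate 1 and 62824961 in root replicate 2. FZP-2A, a transcription factor of spikelet meristems, held 0 and 54.6 in root, above its 0.835 and 8.49 in the apex. SPL17-5A held 0 and 54.6, and RHT1-4D, a DELLA repressor of gibberellin signalling, held 7.48 and 3616. TB1 and LFY were at 0 in both. The part that the difference between these libraries has in the WAPO1 values was not tested.

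**Figure D3:**
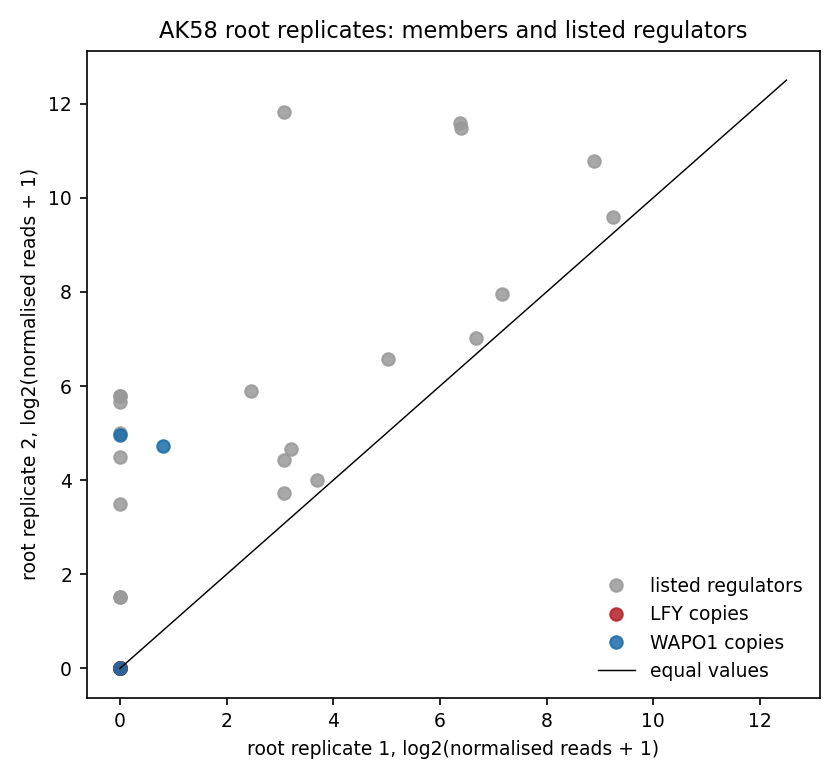
Root replicate 2 against root replicate 1, both as log2(normalised reads + 1), for the WAPO1 and LFY copies and the 34 listed regulator copies, with the line of equal values. WAPO1-7B and WAPO1-7D lie near the left edge above that line, with 25.4 and 30.1 normalised reads in replicate 2. WAPO1-7A and the 3 LFY copies share the point at 0.

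In axillary buds, 4 of the 6 copies were called lower than in the apex, against 8.12% of all identifiers tested. The members' median log2 fold change was −3.69, beside −0.07 for all identifiers tested. The log2 fold change was −4.83 ± 0.46 for LFY-2A (limma adjusted p = 0.00185), −5.24 ± 0.63 for LFY-2B (limma adjusted p = 0.00382) and −3.81 ± 0.47 for LFY-2D (limma adjusted p = 0.00406). WAPO1-7A was at −2.66 ± 0.52 (limma adjusted p = 0.0189). On recovered reads the apex exceeded the bud 36.9-fold for LFY-2A (exact 95% counting interval 19.2 to 81.5), 45.7-fold for LFY-2B (25.9 to 89.0) and 15.0-fold for LFY-2D (10.6 to 21.8).

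For WAPO1-7B and WAPO1-7D the same comparison missed the threshold. WAPO1-7B was at −3.01 ± 1.20 and WAPO1-7D at −3.56 ± 1.52 in bud against apex (limma adjusted p = 0.139 and 0.162), and the bud and apex libraries did not overlap for either copy. The apex to bud ratio was 8.55 for WAPO1-7A (exact 95% counting interval 3.37 to 27.8), 10.8 for WAPO1-7B (4.98 to 27.9) and 14.5 for WAPO1-7D (7.11 to 34.5). WAPO1-7B and WAPO1-7D passed the test in the fit of bud and apex alone (limma adjusted p = 0.00526 and 0.00693), and also without either or both root libraries. The call of WAPO1-7A was lost without bud replicate 2 (limma adjusted p = 0.118) and with edgeR on recovered reads (adjusted p = 0.151), which kept the 3 LFY calls.

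In buds 2 LFY copies passed the test against leaf and 3 against root. LFY-2D was higher in bud than in leaf by 3.84 ± 0.47 (limma adjusted p = 0.00521) and LFY-2A by 2.15 ± 0.46 (limma adjusted p = 0.0212), so 2 of the 6 copies were called higher, against 11.2% of all identifiers tested. LFY-2B, at 1.72 ± 0.63, missed the threshold against leaf (limma adjusted p = 0.0876). Against root, 3 copies were called higher, against 14.2% of all: LFY-2A, LFY-2B at 2.47 ± 0.63 (limma adjusted p = 0.0255) and LFY-2D (limma adjusted p = 0.00187). LFY-2A and LFY-2B rested on 9 and 12 bud reads. The leaf call of LFY-2A was lost without either leaf or either bud library and that of LFY-2D without leaf or bud replicate 1. The root calls of LFY-2A and LFY-2B were lost without either bud library. WAPO1 was not called in either comparison, where WAPO1-7B in bud against leaf was at 1.87 ± 1.20 (limma adjusted p = 0.276). Between leaf and root none of the 6 copies was called by limma or by edgeR, and none had an unadjusted p under 0.05 in the limma fit, where 23.5% of all identifiers tested were called in either direction. Without root replicate 1, WAPO1-7B and WAPO1-7D were called lower in leaf than in root.

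By the measure of being called higher in the apex than in each of leaf, root and bud, WAPO1-7A and the 3 LFY copies qualified. Of all identifiers tested, 2.77% did. WAPO1-7A, LFY-2A and LFY-2B passed the filter through the apex alone, so their place here is no independent support. Among the 34 listed regulator copies, 25 were tested and 3 qualified: VRT2-7A, VRT2-7B and SVP1-6A, MADS-box genes of the SVP group that act in the vegetative apex and early spike.

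For LFY-2A and LFY-2D the order of tissues was apex above bud above leaf and root, with leaf and root not separable at these counts. For LFY-2B it was apex above bud above root, and bud and leaf were not separable. For WAPO1-7A the means ran apex, bud, then leaf and root at 0, but its bud rested on 5 reads and missed the threshold against leaf and root (limma adjusted p = 0.0896 and 0.0807). For WAPO1-7B and WAPO1-7D root and bud were not separable (limma adjusted p = 0.599 and 0.807).

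VRN1, a MADS-box gene that cold induces and that promotes flowering, went the other way from LFY and WAPO1. VRN1-5A held 31.7 and 54.3 normalised reads in the apex and 1394 and 1536 in the buds. It was higher in bud by 5.10 ± 0.61 (limma adjusted p = 0.00375), and VRN1-5B and VRN1-5D were higher by 5.89 and 7.20, against apex libraries with 0 to 1.70 normalised reads. All 3 VRN1 copies were also the most raised listed regulators in bud against leaf and in bud against root. In bud against apex 3 of the 25 tested regulator copies were called higher and 3 lower, with a median of −0.89. The 3 lower ones were VRT2-7A at −2.07, VRT2-7B at −2.01 and SVP1-6A at −1.61.

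In the other comparisons the listed regulators moved as follows. Against the apex, 15 of 25 were called lower and 1 higher in leaf, and 11 lower and 1 higher in root. Among the called copies the steepest falls were SPL17-5A at −7.03, SPL14-7A at −6.12 and SPL17-5B at −5.79 in leaf, and VRT2-7B at −8.82, VRT2-7A at −8.53 and SPL14-7A at −6.90 in root. In bud, 12 were called higher and 1 lower than in leaf, and 14 higher and 2 lower than in root. TB1-4A, with 37.6 and 67.0 normalised reads in the apex and 15.9 and 23.8 in the buds, was at −1.33 in bud against apex which missed the threshold (limma adjusted p = 0.131).

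Within each family the copies held unequal shares. Of the LFY reads in the 2 AK58 apex libraries, 564 and 717 in all, LFY-2A had 22.2% and 24.8%, LFY-2B 39.7% and 38.5%, and LFY-2D 38.1% and 36.7%. In the buds LFY-2D had 20 of 31 reads, 64.5% (exact 95% interval 45.4 to 80.8%), and 15 of 25 reads, 60.0% (38.7 to 78.9%). The D share was higher in both bud libraries than in both apex libraries. The exact 95% intervals of the D share in the apex were 34.1 to 42.3% and 33.1 to 40.3%. The interval of bud replicate 1 lay above both, and that of bud replicate 2 overlapped both. Of the WAPO1 reads in the apex, 99 and 115, WAPO1-7A had 14.1% and 21.7%, WAPO1-7B 41.4% and 24.3%, and WAPO1-7D 44.4% and 53.9%. Each bud library held 10 WAPO1 reads, too few to order the copies. Shares in AK58 are not corrected for length, shares of single copies depend on how reads common to near-identical copies were assigned, and intervals cover counting error only.

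In ZM7698 the picture was flatter. All 6 copies were above 0 in all 8 libraries, at 0.0690 to 1.66 TPM. Only LFY-2B and LFY-2D passed the filter, and neither was called in any comparison. Of all identifiers tested, 0% to 2.50% were called in these comparisons. None of the copies was at 0 in a bud or apex library, and the bud and apex values of most copies overlapped within a genotype.

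**Figure D4:**
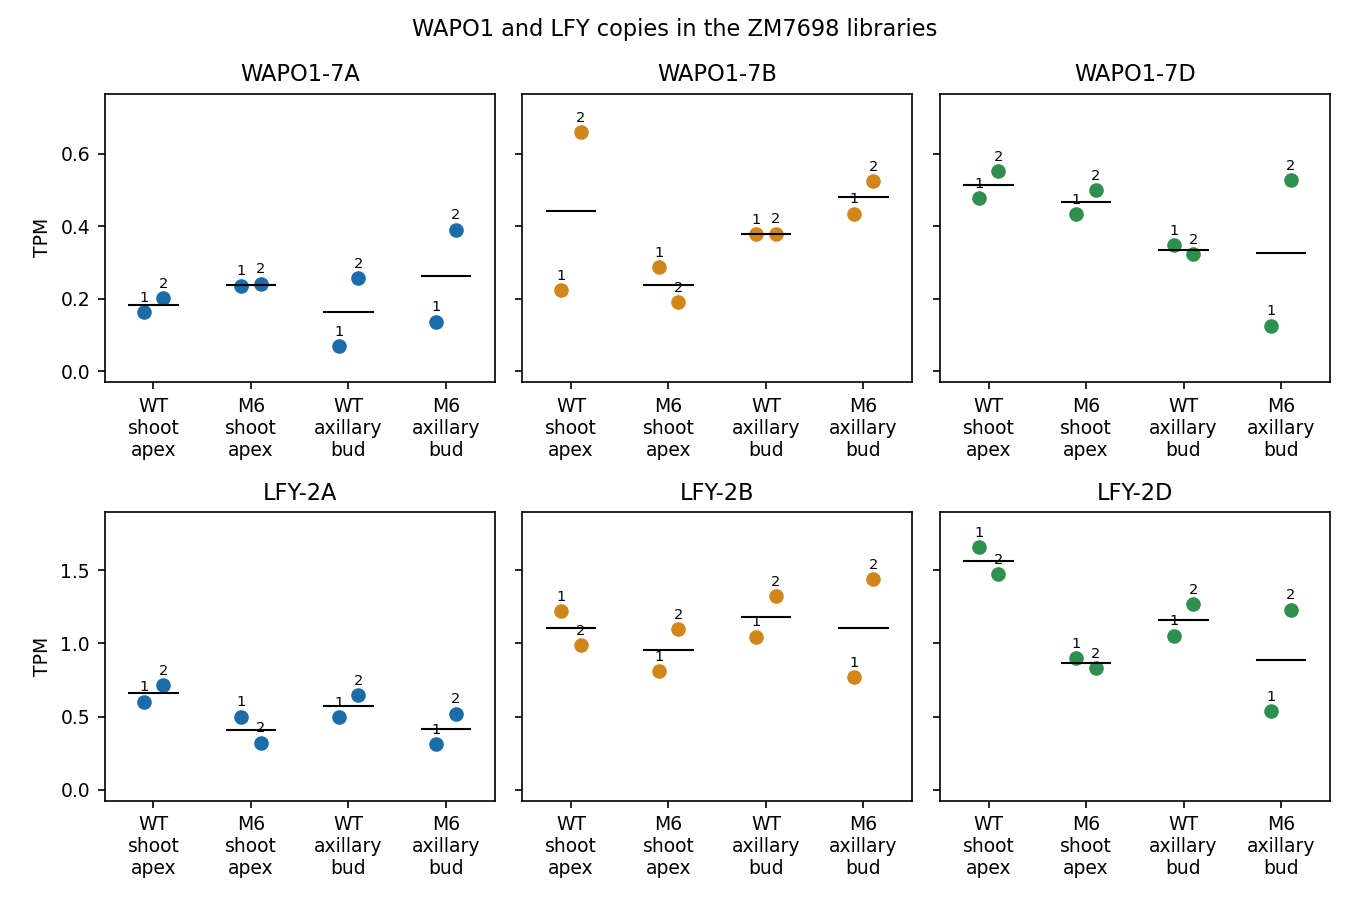
TPM of each copy in the 8 ZM7698 libraries, by genotype and tissue. Points are libraries, numbers are replicates and bars are the mean of 2 libraries. LFY-2D is highest in the WT apex, at 1.66 and 1.47 TPM, and replicate 2 lies above replicate 1 for all 6 copies in the M6 bud.

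LFY-2D held 1.66 and 1.47 TPM in WT apex, 1.05 and 1.27 in WT bud, 0.901 and 0.829 in M6 apex and 0.537 and 1.23 in M6 bud. LFY-2B held 1.22 and 0.987 TPM in WT apex, 1.05 and 1.32 in WT bud, 0.809 and 1.10 in M6 apex and 0.768 and 1.44 in M6 bud. LFY-2A held 0.603 and 0.713 TPM in WT apex, 0.495 and 0.647 in WT bud, 0.498 and 0.321 in M6 apex and 0.309 and 0.519 in M6 bud. In WT apex LFY-2D lay above LFY-2B and LFY-2B above LFY-2A in both libraries.

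WAPO1 stayed under 1 TPM everywhere. WAPO1-7A held 0.163 and 0.201 TPM in WT apex, 0.0690 and 0.256 in WT bud, 0.236 and 0.241 in M6 apex and 0.136 and 0.390 in M6 bud. WAPO1-7B held 0.223 and 0.660 in WT apex, 0.378 and 0.380 in WT bud, 0.287 and 0.190 in M6 apex and 0.435 and 0.524 in M6 bud. WAPO1-7D held 0.478 and 0.553 in WT apex, 0.348 and 0.323 in WT bud, 0.433 and 0.5001 in M6 apex and 0.125 and 0.527 in M6 bud. Between WT apex and WT bud only WAPO1-7D and LFY-2D did not overlap, both lower in bud, as was so for 32.3% of all identifiers tested, and both overlapped between the M6 tissues. Between M6 apex and M6 bud WAPO1-7B did not overlap and was higher in bud, a ratio of 2.01, as did 19.8% of all identifiers tested.

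On this length-corrected scale the members were low beside some listed regulators and high beside others. In WT apex the LFY copies summed to 3.48 and 3.17 TPM and the WAPO1 copies to 0.864 and 1.41. Q-5A, an AP2-type gene of the spike, held 22.6 and 27.3 TPM there, VRT2-7B 7.64 and 10.9, and TB1-4B 2.03 and 3.30. All listed VRN1 and FT1 copies were at 0 in both WT apex libraries. LFY-2D ranked at the 63.3 and 60.1 percentile of all wheat gene identifiers in these libraries and WAPO1-7A at the 44.7 and 43.9 percentile. Those ranks include identifiers at 0. Among wheat gene identifiers above 0, LFY-2D was at the 44.3 and 40.3 percentile and WAPO1-7A at the 16.0 percentile in both. The LFY sum exceeded the WAPO1 sum in every ZM7698 library, by 2.21 to 4.03 times.

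Only LFY-2B and LFY-2D passed the filter of 1 TPM in at least 2 libraries. Between WT bud and WT apex the log2 fold change was 0.05 for LFY-2B (95% interval −0.42 to 0.53) and −0.25 for LFY-2D (−0.72 to 0.23), with limma adjusted p of 0.945 and 0.639. Of all 50878 identifiers tested, 2.50% were called in that comparison. Between M6 bud and M6 apex the values were 0.09 and −0.01, where 0.0884% of identifiers were called. TB1-4B, by contrast, was higher in bud by 2.25 in WT (limma adjusted p = 0.0209) and by 3.06 in M6 (limma adjusted p = 0.0288). Of 20 tested regulator copies, 2 were called higher and none lower in WT bud against apex, and 1 higher and none lower in M6.

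In the apex the LFY-2D and LFY-2A values of M6 lay under those of WT, while those of LFY-2B overlapped. LFY-2D and LFY-2B did not pass the test, and LFY-2A did not pass the filter. The LFY sum in the apex was 3.33 ± 0.22 TPM in WT and 2.23 ± 0.03 TPM in M6 (SD, n = 2 each), a ratio of 0.669, and the groups did not overlap. LFY-2D had a ratio of 0.552 and LFY-2A of 0.622, also without overlap, and LFY-2B of 0.862 with overlap. Groups of M6 and WT apex did not overlap, with M6 lower, for 29.2% of all identifiers tested. WAPO1-7A was the only copy whose M6 apex libraries lay wholly above WT, at a ratio of 1.31, as for 17.4% of all identifiers tested. The log2 fold change of LFY-2D was −0.46 ± 0.20 (95% interval −0.94 to 0.02), which missed the threshold (limma adjusted p = 0.783). Fold changes on log2(TPM + 1) understate those of low genes, and with 0.1 added the value was −0.79. In that comparison 0.134% of identifiers were called, and among the listed regulators SVP1-6D and SPL14-7D were called higher and none lower.

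The bud gave no such separation. LFY-2D was at −0.22 and LFY-2B at −0.07 in M6 against WT bud, where 0.147% of identifiers were called. WAPO1-7B was the only copy whose groups did not overlap, with M6 higher at a ratio of 1.27, as for 16.5% of all identifiers tested. The M6 bud libraries spread widely: replicate 2 lay above replicate 1 for all 6 members. Of the 34 listed regulator copies, 20 were higher in replicate 1 and 6 in replicate 2. How all identifiers divided between these replicates was not counted, so neither count has a background share. The difference of the M6 effect between bud and apex was 0.24 for LFY-2D (limma adjusted p = 0.840) and 0.04 for LFY-2B (limma adjusted p = 0.9748). For that difference 0% of identifiers were called, and 4105 had an unadjusted p under 0.05. WAPO1 and LFY-2A could be fitted only without the filter, where none of the 6 copies was called in any of these comparisons. For WAPO1 and LFY-2A, at 0.713 TPM or less, a log2 fold change of 1 between groups could not be reached after adding 1. Their lack of a call between groups therefore decides nothing.

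The gap between bud and apex for LFY differed in size between the 2 sets. The LFY sum in apex over bud was 25.1 in AK58 (exact 95% counting interval 19.2 to 33.4). In ZM7698 the ratio was taken the other way, as bud over apex, and was 0.876 in WT and 1.08 in M6. The mean sum was thus higher in the apex in AK58 and in ZM7698 WT, and lower in M6. Bud and apex sums overlapped in both ZM7698 genotypes. Cultivar, age, cold treatment and unit differ between the sets and cannot be told apart, and the difference between sets was not tested.

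**Figure D5:**
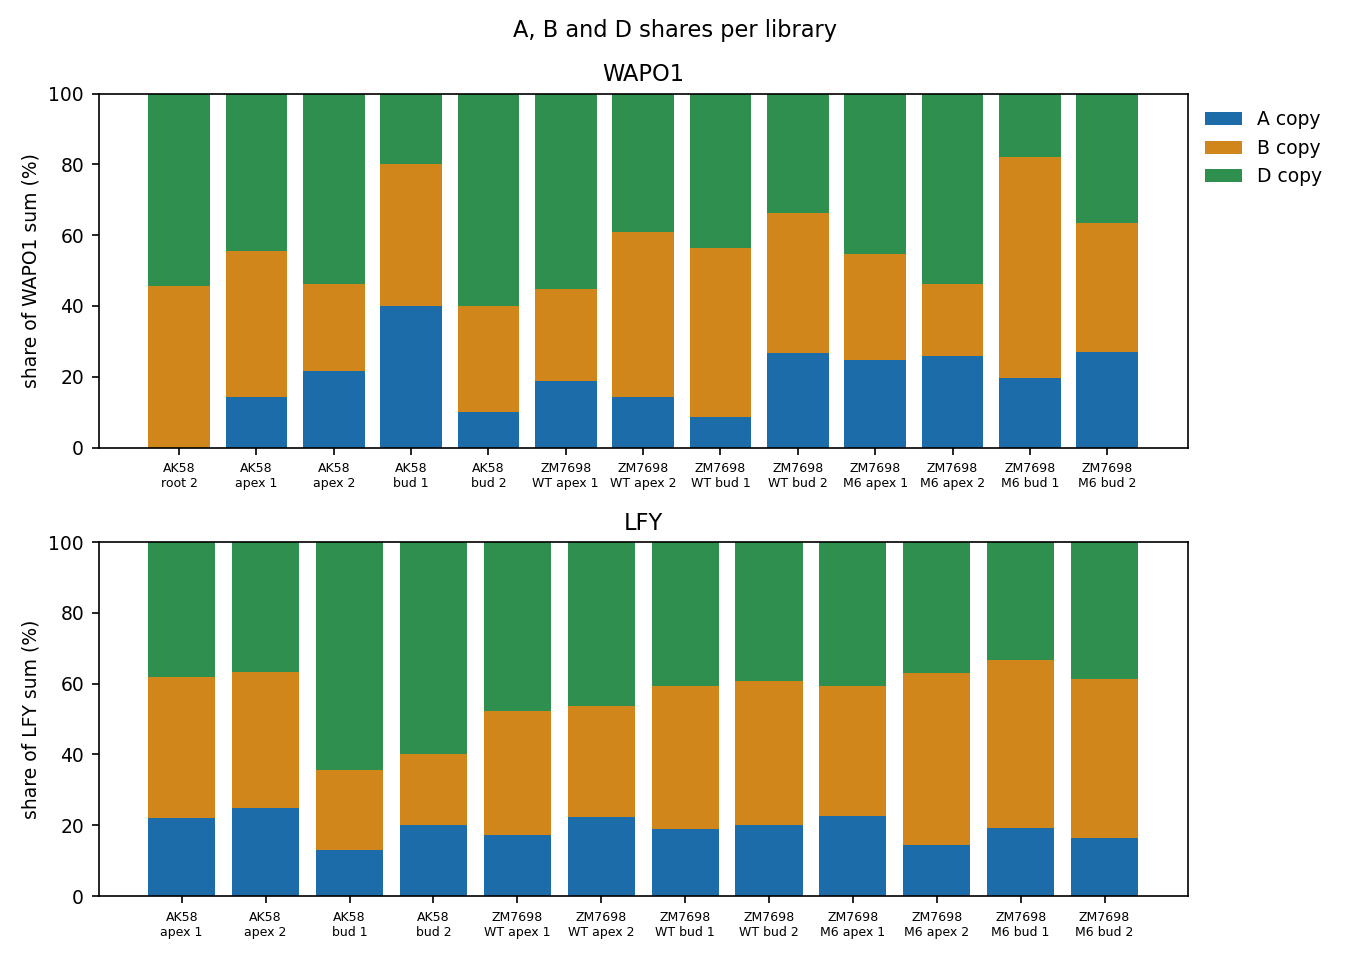
Shares (%) of the A, B and D copies in the summed WAPO1 and LFY values of each library, from normalised reads in AK58 and TPM in ZM7698. AK58 libraries with fewer than 10 reads of the family are left out. The D share of LFY is 64.5% and 60.0% in the AK58 buds and 33.3% to 47.6% in ZM7698.

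In ZM7698 LFY-2D made up 46.4% to 47.6% of the LFY sum in WT apex and 39.2% to 40.6% in WT bud. In M6 its share was 36.9% to 40.8% in the apex and 33.3% to 38.6% in the bud. The WT apex shares lay above those of every other ZM7698 group. LFY-2A had the smallest share in all 8 libraries. WAPO1 shares varied more between replicates, with WAPO1-7B at 25.8% and 46.7% in the WT apex.

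Likeness of pattern was measured as Pearson's r of log2(value + 1) over the 8 libraries of a set, which form 4 groups. It is a description, and high values follow from few groups and many zeros. WAPO1-7A was more like the LFY copies (r = 0.972 to 0.977) than its own homoeologs (0.689 with WAPO1-7B and 0.705 with WAPO1-7D). WAPO1-7B and WAPO1-7D were alike (r = 0.973), and both had reads in root replicate 2. The identifiers most like each copy in AK58, unnamed in the tables, were TraesCS2A02G461000 and TraesCS2D02G192400 for WAPO1-7A (r = 0.998 and 0.996) and TraesCS2D02G090400 and TraesCS3D02G306800 for WAPO1-7B (0.995 and 0.993). For WAPO1-7D they were TraesCS6A02G059300 and TraesCS2D02G412200 (r = 0.999 and 0.998). For LFY-2B they were TraesCS5D02G195300 and TraesCSU02G120900 (r = 0.998 and 0.996). LFY-2A was most like TraesCS1A02G056800 and TraesCS2A02G127400, and LFY-2D most like TraesCS2D02G227400 and TraesCS5A02G450000.

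Values are given for 1 companion each of LFY-2D, LFY-2A and WAPO1-7D. TraesCS5A02G450000 held 1418 and 2191 normalised reads in the apex, 35.3 in each bud and 0 in leaf and root. TraesCS1A02G056800 held 181 and 276 in the apex, 3.60 and 4.93 in the buds and 0 in leaf and root. TraesCS6A02G059300 held 46.8 and 67.9 in the apex, 2.16 and 5.75 in the buds, 0 and 31.0 in root and 0 in leaf. The first 2 were at 0 in both roots and the last had reads in root replicate 2, as their members did. In ZM7698 the identifiers most like LFY-2B were TraesCS6D02G363400 and TraesCS7D02G203000 (r = 0.952 and 0.948). Those most like LFY-2D were TraesCS4A02G269500 and TraesCS2B02G548400 (0.979 and 0.963), and LFY-2B and LFY-2D had r = 0.641 with each other.

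The 5 identifiers on each side of every copy, by identifier order on its chromosome, were 60 in all, of which 41 were tested in AK58. In bud against apex 5 of these were called lower and 1 higher. The identifier just before each LFY copy was among the 5. TraesCS2A02G443000 held 415 and 315 normalised reads in the apex and 0 in both buds, with 395 and 224 in leaf and 0 in root. TraesCS2B02G464100 held 293 and 213 in the apex, 13.0 and 9.86 in the buds and 556 and 302 in leaf. TraesCS2D02G442100 held 72.7 and 42.4 in the apex, 7.93 and 9.86 in the buds and 628 and 304 in leaf. Unlike LFY, these 3 were abundant in leaf. Their log2 fold changes in bud against apex were −8.50, −4.35 and −2.52 (limma adjusted p = 0.00094, 0.0183 and 0.0365). The other called neighbours were TraesCS2B02G463700 at −2.61 and TraesCS7A02G481200 at −3.03, and TraesCS7B02G384300 higher at 3.38.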

How the data were processed

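Values were taken as deposited by the authors, 1 table per library with 120744 identifiers. The ZM7698 tables hold TPM, and each deposited library sums to 1000000. The AK58 values share that name in the deposited tables, yet they are a signal of whole reads divided by 1 factor per library: 100% of values were whole within 0.001 reads, so reads were recovered as counts. The submitters' processing notes name Trimmomatic, HISAT2 2.0.5 and StringTie 1.3.3b. The genome build and the program that counted the AK58 reads are not given in the sources used here. Libraries were stranded messenger RNA, per the labels' protocols.

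The AK58 and ZM7698 libraries, 8 each, were fitted apart with limma 3.58.1 (R 4.3.3, intensity trend, two-sided, Benjamini-Hochberg over all identifiers tested) on log2(value + 1), with all 4 groups in the fit, so that a group with a large spread widens every error. Identifiers needed 10 normalised reads (69525 tested) or 1 TPM (50878 tested) in at least 2 libraries. Read ratios have exact conditional 95% intervals on recovered reads, which cover counting error only. Fits were tested on simulated data with the same noise setting in every group. Changes were planted only in identifiers of higher mean level than WAPO1 and LFY-2A in AK58 and than every copy in ZM7698. That test therefore does not cover those copies, nor the spread between the AK58 root libraries. edgeR 4.0.16 (quasi-likelihood, TMM and RLE scaling) on recovered reads, other filters, added values and scalings, a replicate block and fits without each library were tried as alternatives.

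The members and lists were chosen with earlier results of these data known. The text names all members, the 3 called regulators with the largest change in each AK58 comparison where a member was called, TB1, the 2 identifiers most like each tested member and neighbours called in bud against apex. FZP-2A, RHT1-4D, SPL17-5A in root, Q-5A, VRT2-7B, VRN1 and FT1 in ZM7698, SVP1-6D and SPL14-7D were added after their values were seen. Names of the 34 regulator copies (VRN1, FUL2, FUL3, TB1, VRT2, SVP1, Q, FZP, PPD1, FT1, RHT1, SPL14 and SPL17) were assigned from recalled published identifiers and could not be checked against any file, so the gene named for each regulator value is unverified; 0 of the identifiers had a match in the RefSeq gene table.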

Additional observations from a re-analysis of the deposited data

How the results depend on the processing

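Over 30 AK58 values with a test, 538 of 596 recomputed values kept their direction and their side of the threshold. Of the others, 31 lost the call, 21 gained it and 6 changed sign or went to 0. For the 10 ZM7698 values the numbers were 150 of 167 kept and 17 changed sign, none of them past the threshold. The LFY calls against the apex in leaf, root and bud held in all alternatives in which they were tested. The number of members called in leaf against apex was 3 with the stricter filter of 50 normalised reads, since only the LFY copies were tested. In bud against leaf it was 1 with 5 added, with median centring, with the contrasted groups alone and with edgeR under TMM or RLE scaling, and 4 without both root libraries. In bud against root it was 1 with 5 added and with the contrasted groups alone. With the contrasted groups alone, 1 member was tested in bud against leaf and 1 in bud against root. The causes of the other shifts were not tested. WAPO1-7D in bud against root changed sign to 0.68 with 0.1 added and 0.13 with quantile normalization. LFY-2D in M6 bud against apex became 0.0022 with 5 added and 0.11 with quantile normalization, and the LFY-2B difference of effects −0.043 with median centring. Median centring moved the median of all identifiers in leaf against apex from −0.14 to 0.35.

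With each library left out in turn, members called ranged from 0 to 2 in leaf against root, 1 to 6 in leaf, root and bud against apex, 0 to 4 in bud against leaf and 1 to 5 in bud against root. Members higher in the apex than in each other tissue ranged from 1 to 6. The lowest counts against the apex came without an apex library, where WAPO1-7A, LFY-2A and LFY-2B were no longer tested, and the counts of 6 in root and bud without a root library. WAPO1-7D ranged from −4.96 to 0 in leaf against root and from −3.03 to 1.93 in bud against root, where WAPO1-7B ranged from −2.85 to 1.07. LFY-2B ranged from −0.038 to 0.14 in WT bud against apex, from −0.14 to 0.32 in M6 bud against apex, from −0.30 to 0.16 in M6 against WT bud and from −0.19 to 0.27 in the difference of effects. LFY-2D ranged from −0.28 to 0.26, from −0.49 to 0.047 and from −0.030 to 0.51 in the last 3 of these. Over all identifiers, 5646 were called lower in bud against apex, 12887 in the fit of both groups alone and 685 without apex replicate 2.

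Replicate numbers were not taken as pairs in the main fits. Same-numbered libraries had correlations of deviations of −0.12 to 0.43 in AK58 and −0.31 to 0.16 in ZM7698. The 0.43 was for AK58 root with shoot apex, and the other AK58 pairs reached at most 0.16. With the replicate block, the number of members called was 0 in leaf against root, 6 in leaf, 4 in root and 4 in bud against apex, 2 in bud against leaf, 3 in bud against root and 0 in every ZM7698 comparison, as without it. AK58 buds held 5 to 8 reads per WAPO1 copy, which limits the precision of their ratios.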
